A study of Mus musculus with 6 samples.

Results

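The minor spliceosome is described here through 9 genes, the U11 and U12 small nuclear RNA (snRNA) genes *Rnu11* and *Rnu12* and 7 genes for proteins of the U11/U12 particle, *Rnpc3*, *Zcrb1*, *Snrnp25*, *Snrnp35*, *Snrnp48*, *Zrsr2* and *Pdcd7*. The members were chosen by symbol as known parts of the particle, by a rule that holds no measured value but was written with earlier results of these data known, and all 9 were among the 24421 gene symbols of the count table. RNA was sequenced from whole heads of mouse embryos at E9.0 (embryonic day 9), each library holding RNA from 2 pooled heads of somite-matched embryos. There were 3 libraries of wild-type embryos, *Snrpb* +/+ (WT), and 3 of *Snrpb* ncc+/- embryos (Het), which carry 1 *Snrpb* allele with loxP sites around exons 2 and 3. The *Wnt1-Cre2* transgene removes those exons in the neural tube and in neural crest cells, so the other cells of a Het head keep both copies. The labels name both CD1 and C57BL/6 for every library, and the lines were kept on a CD1 background. The pools were separate embryos, so the spread between libraries includes the differences between pools. *Snrpb* encodes SmB, a protein of the Sm ring that sits on the snRNAs of both spliceosomes.

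Most introns are removed by the major spliceosome, built on the U1, U2, U4, U5 and U6 snRNAs. A small class of introns with a different, highly conserved 5′ splice site and branch point is removed by the minor spliceosome, in which U11, U12, U4atac and U6atac take the places of U1, U2, U4 and U6, while U5, the Sm ring and the SF3b complex are shared. U11 and U12 enter the intron together as a single particle: U11 pairs with the 5′ splice site, U12 pairs with the branch point, and the members described here hold the particle together and recognise the ends of the intron. Loss of minor splicing is known to cause growth, skeletal and brain disorders in people.

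The snRNAs are shown whole, since their short pairing regions define the minor spliceosome. Coordinates are GRCm38 (mm10), 1-based, and sequences are those of the Gencode M21 transcripts, written as DNA. *Rnu11* is a gene of 134 bases at chr4:132270080-132270213 on the minus strand, and the capitals mark 4 bases near its 5′ end that are complementary to CCTT of the minor 5′ splice site. *Rnu12* is a gene of 151 bases at chr15:83149644-83149794 on the plus strand. The capitals mark a stretch that includes bases pairing with the branch point, a pairing that leaves the branch adenosine unpaired. Not every marked base takes part.
Rnu11: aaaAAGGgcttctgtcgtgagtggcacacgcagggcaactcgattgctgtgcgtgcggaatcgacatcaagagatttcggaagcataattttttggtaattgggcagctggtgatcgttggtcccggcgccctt
Rnu12: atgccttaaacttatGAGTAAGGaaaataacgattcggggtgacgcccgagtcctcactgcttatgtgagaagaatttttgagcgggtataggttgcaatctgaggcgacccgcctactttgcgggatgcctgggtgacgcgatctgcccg

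A minor intron with both motifs is shown for *E2f6*, a gene on the list of minor-intron genes used below whose intron could be read from a transcript that retains it, to show what U11 and U12 pair with. The capitals in the first 10 bases mark the 5′ splice site motif (A or G, then TATCCTT), and those in the last 30 bases the branch motif (CCTT, then A or G, then A, then C or T), searched on the transcript strand only. The *E2f6* intron lies at chr12:16820385-16822092 on the plus strand and has the ends AT and AC.
E2f6 first bases: ATATCCTTcc
E2f6 last bases: catcttgtcagatCCTTGACcaggtctcac

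Libraries held 36378803 to 58946111 counted reads in WT and 42398206 to 74909774 in Het. All 9 members passed the filter on low counts, with 102 to 3825 reads per member and library. *Snrpb* itself lay between 414 and 438 CPM (read counts scaled by library size to a common total) in WT and between 412 and 436 in Het, so its total in the head was not measurably lower in Het (log2 fold change -0.0036, 95% interval -0.09 to 0.09), and these gene totals do not show the deletion. Head neural markers were present in every library and the posterior Hox genes were at or below 0.781 CPM summed. WT replicate 1 stood apart, with the lowest summed cardiac markers (4.09 CPM, against up to 30.6 CPM in the other WT libraries and 14.3 to 50.8 CPM in Het) and the highest visceral endoderm markers (10.1 CPM, against 0.888 to 2.39 CPM in Het). The sex makeup of the pools also differed: summed Y-linked genes were 62.8 to 120 CPM in WT and 111 to 228 CPM in Het, with 4 of 4 genes higher on average in Het. *Xist*, the RNA of X inactivation, was at 69.8 to 155 CPM in WT and at 65.1, 0.368 and 98.9 CPM in Het replicates 1 to 3. Het replicate 2 thus had almost no *Xist* and the highest summed Y-linked level. In whole heads, fewer cells of a type and less RNA per cell cannot be told apart, and the part of these differences in the results below was not tested except where a value is given.

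No member passed the test between Het and WT. At an adjusted P of 0.05, edgeR's quasi-likelihood test with Benjamini-Hochberg adjustment called 0 of the 9 members and 1 of all 15584 genes tested (0.00642%). DESeq2 called 0 members and 84 of the 21083 genes with a count. Without adjustment, 2 members were higher in Het at P below 0.05 and 0 were lower, where 4.34% of all genes tested were higher and 4.09% lower. The 2 were *Rnpc3* and *Snrnp48*. In 3 members every Het library lay above every WT library and in 0 members every Het library lay below, against 8.32% and 6.92% of all genes. This was not particular to the members: of 10 counterparts from the major spliceosome (named below), 5 lay wholly above and 1 wholly below. Of the 9 other tested genes listed as specific to the minor spliceosome, 0 lay wholly above and 0 wholly below. The fold changes were positive for 6 members and negative for 3, with a median log2 fold change of 0.07 against 0.0004 over all genes tested.

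*Rnpc3* encodes the protein that binds the 3′ stem-loop of U12 and bridges U11 and U12 in the particle. It lies at chr3:113605067-113630149 on the minus strand (ENSMUSG00000027981). Its level was 21.1, 25.9 and 26.3 CPM in WT replicates 1 to 3 and 31.8, 32.1 and 29.2 CPM in Het replicates 1 to 3. All 3 Het libraries were above all 3 WT libraries, and WT replicate 1, the library that stood apart in its markers, was the lowest. The log2 fold change was 0.34 (SE 0.09, 95% interval 0.14 to 0.54), a level 27.0% higher in Het. It had the smallest P of the members, 0.0037 before adjustment and 0.424 after Benjamini-Hochberg adjustment in edgeR, and ranked 136 among all genes tested. DESeq2 gave an adjusted P of 0.0673, the lowest over 14 alternatives, in which the adjusted P reached 0.999. The 14 include the main fit with the median of all genes subtracted, which is not a separate fit. Over these alternatives the log2 fold change of *Rnpc3* ranged from 0.24 to 0.40. The lowest, 0.24 (SE 0.06), was the value without WT replicate 1. An exact two-sided permutation test over the libraries gave P = 0.1, the smallest that 3 against 3 allows. *Rnpc3* shares 1633 bases with the amylase gene *Amy1* on the same strand, but *Amy1* itself had 0 to 8 reads per library.

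*Snrnp48* encodes a U11 protein that helps to recognise the 5′ splice site. It lies at chr13:38204938-38227665 on the plus strand (ENSMUSG00000021431). Its level was 25.7, 26.8 and 22.0 CPM in WT and 30.3, 29.1 and 26.7 CPM in Het. The lowest Het library (26.7 CPM) fell just below the highest WT library (26.8 CPM), so the groups touched without being apart. The log2 fold change was 0.20 (SE 0.08, 95% interval 0.02 to 0.39), with an edgeR adjusted P of 0.547 (0.035 before Benjamini-Hochberg adjustment). With the mean level of the Y-linked genes as a covariate, its log2 fold change was 0.03 (SE 0.09) and that of *Rnpc3* was 0.32 (SE 0.14), both with an adjusted P of 0.999 in edgeR. The Y-linked level ran with genotype in these libraries, and the part of sex in either difference was not tested. Leaving out WT replicate 3, Het replicate 1 or Het replicate 2 raised its unadjusted P in edgeR to 0.116, 0.114 and 0.0897.

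**Figure D1:**
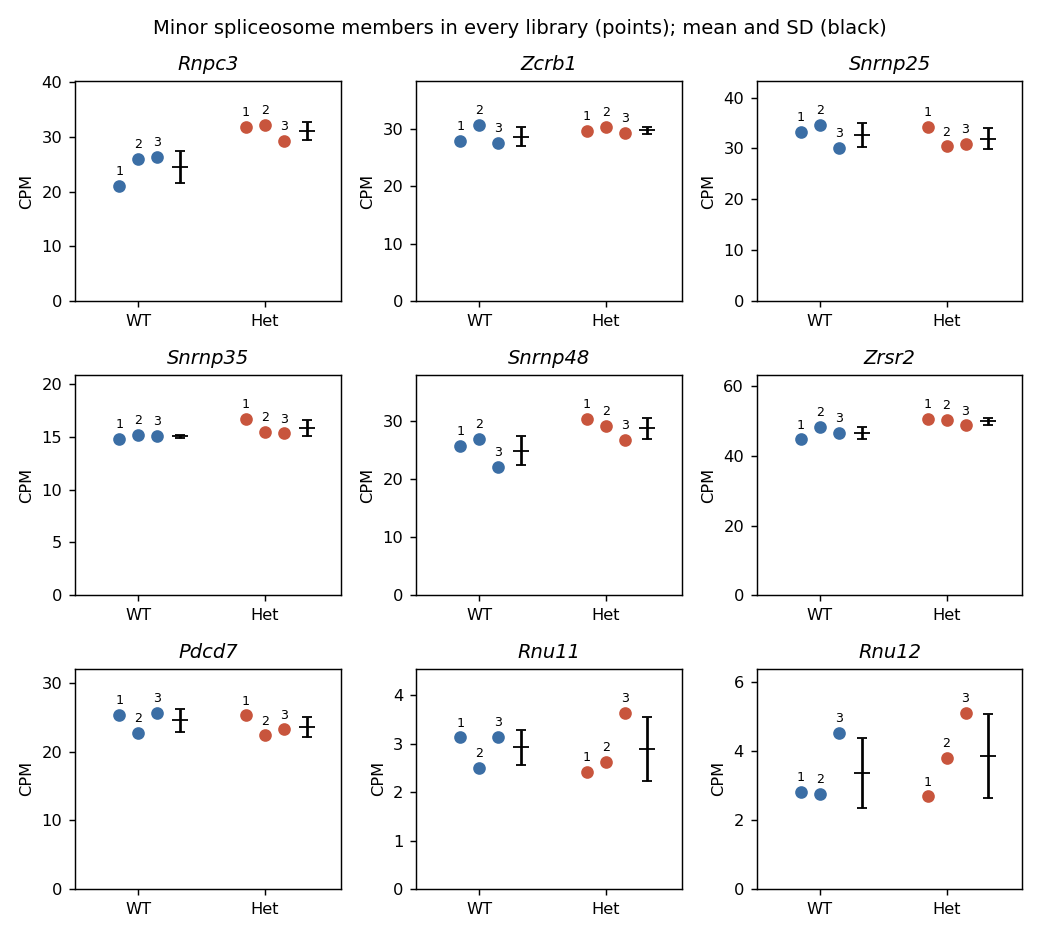
CPM of each member in the 3 WT (blue) and 3 Het (red) libraries, numbered by replicate, with the group mean and SD in black and every axis starting at 0. *Rnpc3* lay between 21.1 and 26.3 CPM in WT and between 29.2 and 32.1 CPM in Het, while the groups of *Zcrb1*, *Snrnp25*, *Pdcd7*, *Rnu11* and *Rnu12* overlapped widely.

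The other U11 proteins differed less. *Snrnp35*, the counterpart of the U1 protein Snrnp70, was at 14.8, 15.2 and 15.1 CPM in WT and 16.7, 15.5 and 15.3 CPM in Het. The groups did not overlap but came close (15.2 against 15.3 CPM), and the log2 fold change was 0.07 (SE 0.07, 95% interval -0.08 to 0.22). *Snrnp25* was at 33.3, 34.6 and 30.1 CPM in WT and 34.2, 30.4 and 31.0 CPM in Het. Its groups covered almost the same range, with a log2 fold change of -0.04 (SE 0.07, 95% interval -0.20 to 0.12). *Pdcd7*, whose product binds *Rnpc3* protein and so ties U11 to U12, was at 25.3, 22.7 and 25.7 CPM in WT and 25.2, 22.4 and 23.2 CPM in Het. Its groups overlapped too, with a log2 fold change of -0.06 (SE 0.07, 95% interval -0.22 to 0.11). The adjusted P from edgeR lay between 0.800 and 0.904 for these 3 genes.

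*Zcrb1*, an RNA-binding protein of the U11/U12 particle, was at 27.9, 30.7 and 27.5 CPM in WT and 29.6, 30.4 and 29.2 CPM in Het. All 3 Het libraries lay inside the range of WT, and the log2 fold change was 0.05 (SE 0.06, 95% interval -0.08 to 0.18). *Zrsr2*, a relative of U2af1 that recognises the 3′ splice site of minor introns, was at 44.8, 48.4 and 46.7 CPM in WT and 50.7, 50.3 and 48.8 CPM in Het. All 3 Het libraries were above all 3 WT libraries, with 48.8 against 48.4 CPM at the closest. The log2 fold change of *Zrsr2* was 0.10 (SE 0.05, 95% interval -0.01 to 0.21), with an edgeR adjusted P of 0.632. *Zrsr2* is X-linked, and its log2 fold change was 0.07 (SE 0.08) with the Y-linked level as a covariate. Its paralog *Zrsr1* was at 10.9 to 13.3 CPM in WT and 11.9 to 14.6 CPM in Het, with overlapping groups and a log2 fold change of 0.14 (SE 0.11), and reads could be split between the paralogs where their sequences are alike. Intervals of the protein genes other than *Rnpc3* and *Snrnp48* all included 0 and lay between -0.22 and 0.22.

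The snRNAs were measured less precisely than the protein genes. *Rnu11* was at 3.13, 2.50 and 3.14 CPM in WT and 2.42, 2.62 and 3.64 CPM in Het, so both the lowest and the highest library were Het. Its log2 fold change was -0.0024 (SE 0.19, 95% interval -0.42 to 0.42). *Rnu12* was at 2.80, 2.74 and 4.51 CPM in WT and 2.68, 3.79 and 5.10 CPM in Het. Replicate 3 was the highest library for *Rnu12* in both groups, and the log2 fold change was 0.22 (SE 0.28, 95% interval -0.43 to 0.88). This value rested on single libraries: it was -0.04 without Het replicate 3 and 0.49 without WT replicate 3. It was 0.76 (SE 0.29) with the Y-linked level as a covariate, with an edgeR adjusted P of 0.999. The biological coefficient of variation, the spread between libraries beyond counting error as a share of the level, was 0.162 for *Rnu11* and 0.240 for *Rnu12*, against 0.054 to 0.080 for the 7 protein genes. The lower limits of both snRNAs lay below those of all 7 protein genes, whereas the upper limit of *Rnu11* (0.42) was below that of *Rnpc3* (0.54). The summed level of other short nuclear RNAs also ranged widely, from 2605 to 5356 CPM in WT and from 4520 to 7173 CPM in Het. Of these RNAs, 4 of 4 tested had a positive log2 fold change, with a median of 0.36. In edgeR 0 of the 4 had an unadjusted P below 0.05. Whether *Rnu11* and *Rnu12* share in this was not tested. Both snRNAs are short and have related copies in the genome, and how reads with several matches were counted is not given in the sources used here. The *Rnu11* gene lies wholly opposite a long non-coding RNA gene, Gm28872, which has no row in the count table.

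**Figure D2:**
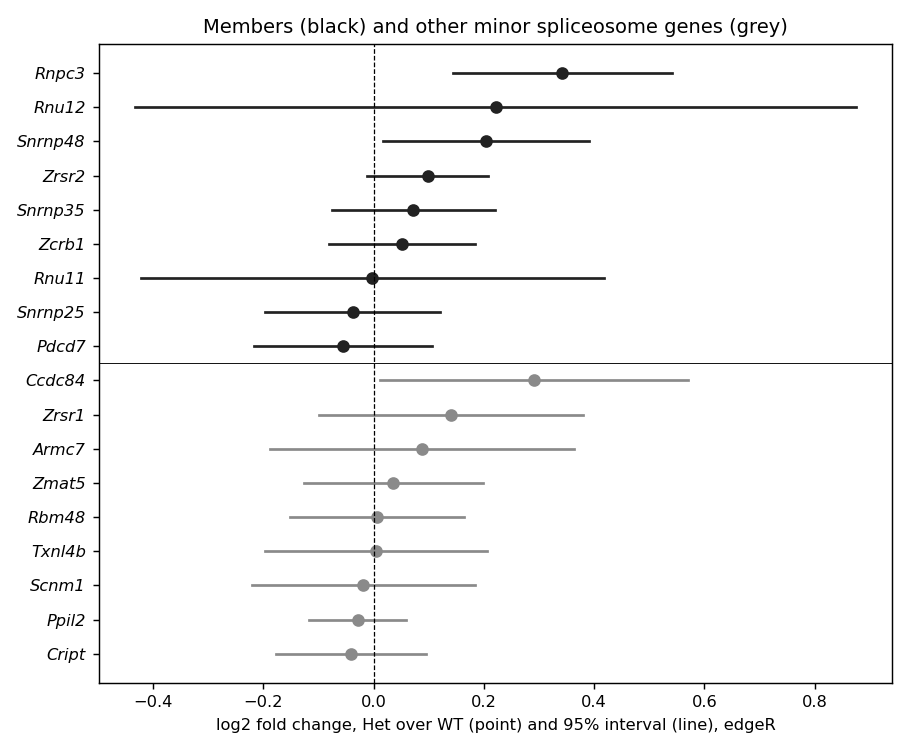
Log2 fold change of Het over WT (x axis, points) with the 95% interval from edgeR (lines) for the 9 members (black) and the 9 other tested genes listed as specific to the minor spliceosome (grey). The intervals of *Rnpc3* (0.14 to 0.54) and *Snrnp48* (0.02 to 0.39) lay above 0, as did that of *Ccdc84*, and those of the snRNAs were the widest of the members.

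The genes whose pattern over the 6 libraries was nearest to each snRNA, by the root mean square (RMS) difference of centred log2 CPM, were *Smg1* (0.0563), *Nlrc3* (0.0676) and *Iqsec2* (0.069) for *Rnu11*. For *Rnu12* they were *Fry* (0.0864), 6530411M01Rik (0.104) and *Rasd1* (0.106). None of these 6 was a short RNA or a spliceosome gene on the lists used here. With 6 libraries and 15584 genes, likeness of this kind is a description only.

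The 2 members with an unadjusted P below 0.05 were also the 2 in whose annotated transcripts a tandem copy of the minor 5′ splice site motif was found. Tandem motifs of this kind are known as sites at which the U11 particle binds the transcripts of its own proteins and alters their splicing. A search for 2 copies of TATCCTT within 30 bases was chosen after the values were seen. It read annotated transcripts on their own strand, so introns were read only where a transcript keeps them. It found 2 of the 9 members, and 21 of the 23376 symbols of the count table with a Gencode M21 transcript (0.0898%). Copies in other introns of members or other genes were not looked for. In *Rnpc3* the window is at chr3:113607237-113607255 on the minus strand, in the 3′ UTR of 3 transcripts. In *Snrnp48* it is at chr13:38214669-38214693 on the plus strand, in an intron of the coding transcripts that is kept in 1 of 7 annotated transcripts. The capitals mark the copies of the motif.
Rnpc3: TATCCTTtcttgTATCCTT
Snrnp48: TATCCTTtttgcaaatgaTATCCTT

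Of the 13 other tested genes in which the search found a tandem motif, 6 had a positive and 7 a negative log2 fold change. Their median was -0.009, and 0 had an unadjusted P below 0.05 in either direction in edgeR. Whether the motif has a part in any of these values was not tested. Gene totals do not separate transcripts that use the exons around these windows from those that do not, so isoform use at *Rnpc3* and *Snrnp48* was not analysed here.

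Between genes, levels can be compared only per length, as CPM per kilobase of all annotated exons. In WT, *Snrnp25* was the highest of the protein genes at 31.4 ± 2.25 CPM per kb (SD, n = 3). *Rnu12* (22.2 ± 6.66) and *Rnu11* (21.8 ± 2.71) followed and did not differ from each other beyond their spread. How well RNAs as short as these snRNAs (151 and 134 bases) were recovered in the libraries was not measured. Their place among the protein genes is therefore not a rank of abundance. *Snrnp35* came next at 11.2 ± 0.139 CPM per kb, above *Pdcd7* (9.83 ± 0.655) and *Zcrb1* (9.32 ± 0.564), whose ranges overlapped. *Zrsr2* was at 6.48 ± 0.25, *Rnpc3* at 3.69 ± 0.442 and *Snrnp48* at 2.45 ± 0.248 CPM per kb, and the ranges of these 3 over all 6 libraries were apart. The order depends on the length used, because the exons of *Snrnp48* (10129 bases) and *Zcrb1* (3074 bases) together cover far more than a coding transcript. Per kb of the longest coding transcript (1785 and 877 bases), *Snrnp48* was at 13.9 ± 1.41 and *Zcrb1* at 32.7 ± 1.98 CPM per kb (SD, n = 3), and *Rnpc3* (5.22 ± 0.625) was then the lowest member.

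*Snrnp35*, *Zrsr2* and *Rnpc3* were below their counterparts in the major spliceosome on both length scales, by an amount that depends on the scale. Per base of coding transcript, *Snrnp35* was at 6.44 ± 0.118% of *Snrnp70* in WT and 6.54 ± 0.161% in Het (SD, n = 3; exact permutation test, P = 0.5). *Zrsr2* was at 7.13 ± 0.092% of *U2af1* in WT and 7.29 ± 0.182% in Het (exact permutation test, P = 0.3). Per base of all exons, the same ratios were 24.8% in WT and 25.2% in Het for *Snrnp35* and 9.52% and 9.73% for *Zrsr2*. Per base of coding transcript again, *Rnpc3* was at 4.23, 5.38 and 5.41% of *Snrpa*, a U1 protein with related RNA-binding domains, in WT and 6.53, 6.98 and 6.20% in Het. The 2 groups of this ratio did not overlap (exact permutation test, P = 0.1, the smallest possible). Against *Snrpb2*, the related U2 protein, *Rnpc3* was at 10.9 ± 0.674% in WT and 11.9 ± 0.806% in Het, with overlapping groups (exact permutation test, P = 0.2). Per base of all exons, *Rnpc3* was at 7.68% of *Snrpa* in WT and 10.1% in Het, and at 10.6% and 11.6% of *Snrpb2*. *Snrpb2* itself had a log2 fold change of 0.22 (SE 0.06) and an edgeR adjusted P of 0.424.

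**Figure D3:**
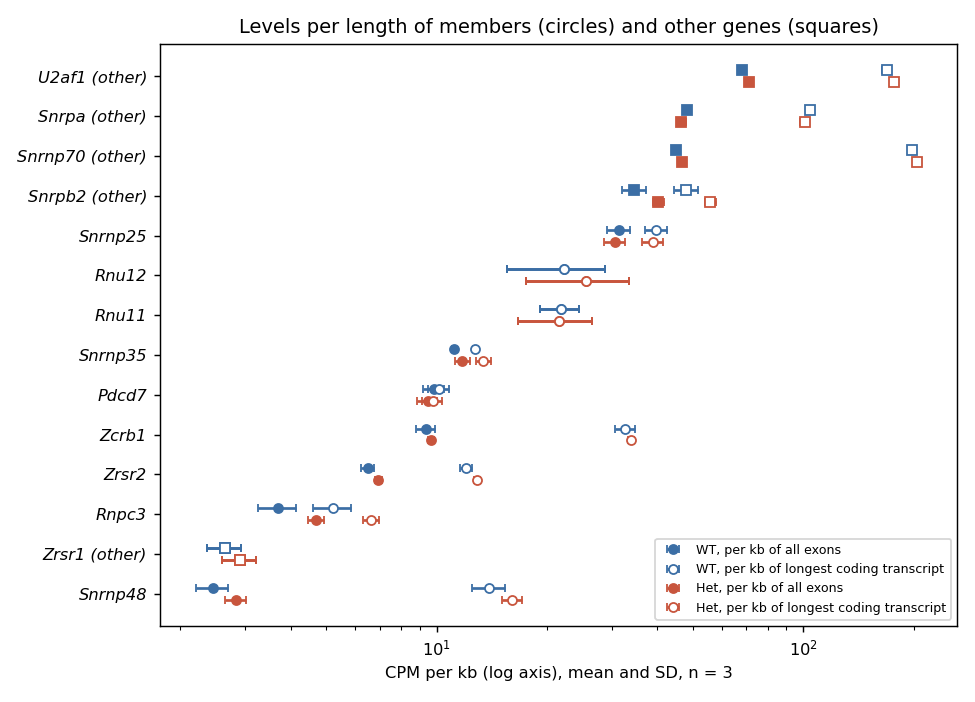
CPM per kb on a log axis, mean and SD over 3 WT (blue) and 3 Het (red) libraries, for members (circles) and counterparts or the paralog *Zrsr1* (squares), per kb of all annotated exons (filled) or of the longest coding transcript (open). *U2af1*, *Snrpa* and *Snrnp70* sit above every member on both scales, and *Snrnp48* moves from 2.45 to 13.9 CPM per kb in WT with the length used.

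Other genes listed as specific to the minor spliceosome did not move as a group. Of the 11 listed, *Rnu4atac* and *Rnu6atac* had no row in the table, and 0 of the 9 tested were called by edgeR or by DESeq2. Their median log2 fold change was 0.0064, with 6 positive and 3 negative. *Ccdc84*, a partner of Txnl4b in the minor tri-snRNP, was at 6.48, 5.55 and 5.05 CPM in WT and 6.94, 7.59 and 6.35 CPM in Het. It was the only gene of this list with an unadjusted P below 0.05, with a log2 fold change of 0.29 (SE 0.12) and an edgeR adjusted P of 0.558, and its groups overlapped. *Scnm1*, which acts on the assembled minor spliceosome, had a log2 fold change of -0.02 (SE 0.09). *Zmat5*, a further U11/U12 protein, was at 0.04 (SE 0.07). *Armc7* (0.09, SE 0.12) and *Rbm48* (0.0064, SE 0.07), partners in minor splicing, and *Txnl4b* (0.0043, SE 0.09), *Ppil2* (-0.03, SE 0.04) and *Cript* (-0.04, SE 0.06) had unadjusted P above 0.05 in edgeR.

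Among proteins shared with the major spliceosome or special to it, edgeR called 0 genes and DESeq2 called 3. Over all genes with a count, DESeq2 called 84 of 21083. In the Sm ring, 0 of 7 tested genes had an unadjusted P below 0.05, with *Snrpe* (log2 fold change 0.06, SE 0.04), *Snrpd3* (0.06, SE 0.06) and *Snrpf* (0.06, SE 0.07) the lowest in P of those above 0. Only *Snrpg* (-0.03, SE 0.04) and *Snrpb* were below 0. In SF3b, which holds the branch point with U12 as with U2, *Sf3b3* had a log2 fold change of -0.22 (SE 0.05), with an adjusted P of 0.309 in edgeR and 0.0227 in DESeq2. *Sf3b1* was at 0.10 (SE 0.04), and *Phf5a* and *Sf3b5* were also above 0 while *Sf3b2* and *Sf3b4* were below. Of the 12 genes of U5 and the tri-snRNP, *Prpf3* had a log2 fold change of 0.28 (SE 0.06), with an adjusted P of 0.309 in edgeR and 0.0144 in DESeq2. *Txnl4a* (0.10, SE 0.05), *Ddx23* (0.06, SE 0.04), *Prpf6* (-0.08, SE 0.04), *Snrnp200* (-0.15, SE 0.07) and *Prpf31* (-0.02, SE 0.04) did not reach an unadjusted P of 0.05. Of the 10 counterparts in U1 and U2, *Snrpa1*, a U2 protein that the minor particle lacks, had a log2 fold change of 0.24 (SE 0.04), with an adjusted P of 0.235 in edgeR and 0.0038 in DESeq2. *Sf3a1* was at -0.11 (SE 0.05), *U2af1* at 0.07 (SE 0.04), *Snrpa* at -0.05 (SE 0.04) and *Sf3a2* at -0.03 (SE 0.06) on the same scale.

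Genes that contain a minor intron are the substrates of the members. Of the 21 listed genes of this kind, edgeR called 0 and DESeq2 called 1, where DESeq2 called 84 of all 21083 genes with a count. The median log2 fold change of the 21 was -0.01 with 7 positive and 14 negative. The gene DESeq2 called was *E2f1*, a cell cycle transcription factor, at 30.5, 28.8 and 27.0 CPM in WT and 21.5, 21.2 and 22.1 CPM in Het. All 3 Het libraries were below all 3 WT libraries, with a log2 fold change of -0.42 (SE 0.06, 95% interval -0.55 to -0.28). The adjusted P of *E2f1* was 0.182 in edgeR, 0.039 in edgeR without the filter on low counts and 6.65e-05 in DESeq2. *Mapk3*, a kinase of the Ras pathway, was at 51.4, 54.2 and 60.1 CPM in WT and 60.7, 62.2 and 64.0 CPM in Het, again without overlap. Its log2 fold change was 0.17 (SE 0.06), with an edgeR adjusted P of 0.486. *Ncbp2* (0.09, SE 0.04) and *E2f5* (0.07, SE 0.04), and *E2f6* (-0.07, SE 0.04) and *Vps16* (-0.08, SE 0.05), had the next lowest P in each direction and did not reach an unadjusted P of 0.05 in edgeR. *E2f1* (chr2:154559407-154569892) and *Vps16* (chr2:130424339-130444269) lie on the same chromosome as *Snrpb* (chr2:130171414-130179403). The part of linkage to the *Snrpb* allele with loxP sites in their values was not tested.

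Minor introns could also be read from the transcripts where another transcript of the gene keeps them. Of 224173 introns of coding transcripts, 12208 (5.45%) lay within an exon of another transcript. The count of motifs left out the introns of a chromosome. Among the remaining introns 23 had both motifs, in 20 genes that were all tested. edgeR called 0 of the 20 genes, and their median log2 fold change was -0.0086. At an unadjusted P below 0.05, 1 of the 20 was higher in Het and 4 were lower, where 4.34% and 4.09% of all genes tested were. The higher one was 9930104L06Rik, at 0.39 on the log2 scale (SE 0.12, edgeR adjusted P of 0.437). Every Het library lay above every WT library in 1 of the 20 genes, 9930104L06Rik, and below in 5. The shares over all genes tested were 8.32% and 6.92%. The 5 were *Spc24*, *Pola2*, *Exosc5*, *Scn9a* and *E2f6*. *Spc24*, of the kinetochore, and *Pola2*, of the DNA polymerase alpha complex, had log2 fold changes of -0.18 (SE 0.05) and -0.15 (SE 0.04), with edgeR adjusted P of 0.422 and 0.437. *Exosc5*, of the RNA exosome, was at -0.14 (SE 0.06), and *Scn9a* was at -1.25 (SE 0.47) with a mean of 0.278 CPM in WT. *Scn9a*, 1 of the 4 lower genes, had 9, 17 and 11 reads in WT and 1, 10 and 11 in Het. It passed the filter on low counts through its WT libraries alone, so its lower level in Het cannot be read as a result. Whether the minor introns themselves were retained cannot be read from counts per gene.

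**Figure D4:**
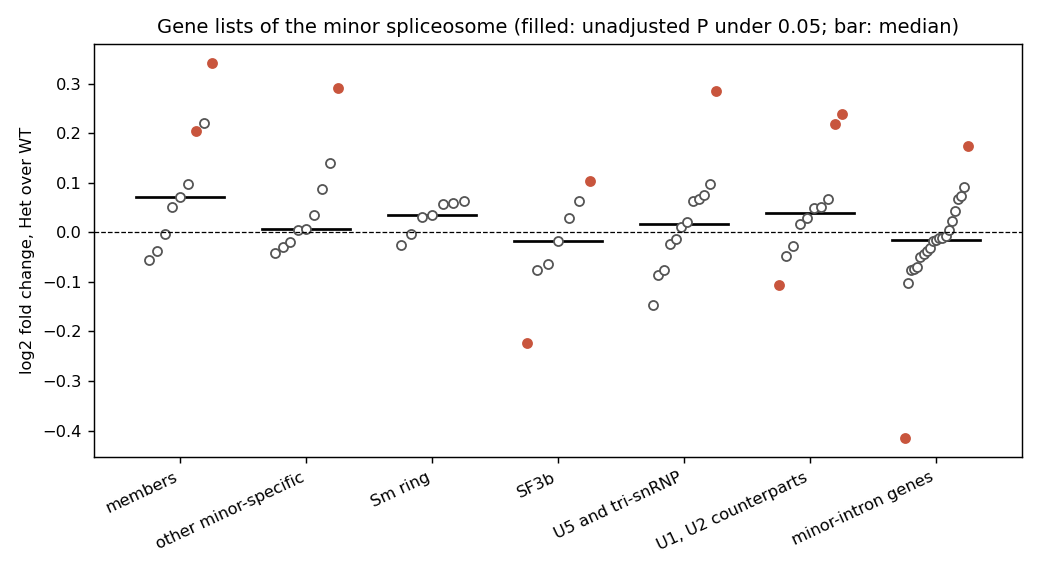
Log2 fold change of Het over WT (y axis) for each tested gene of 7 lists, with the list median as a bar and genes at an unadjusted P below 0.05 filled. The medians lay between -0.02 and 0.07, and the 2 filled members are *Rnpc3* and *Snrnp48*.

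Across libraries, the summed level of the 7 member proteins was 193, 204 and 193 CPM in WT and 219, 210 and 204 CPM in Het. Replicate 3 of Het and replicate 2 of WT were almost level, at 203.5 and 204.2 CPM, so the sums of the groups overlapped. When each library was left out in turn, the median log2 fold change of the 9 members lay between 0.06 and 0.09. *Rnpc3*, *Snrnp35*, *Snrnp48* and *Zrsr2* stayed above 0 in all 14 alternatives, while *Zcrb1*, *Snrnp25*, *Pdcd7*, *Rnu11* and *Rnu12* each crossed 0 in at least 1. The 14 include the main fit with the median of all genes subtracted.

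**Figure D5:**
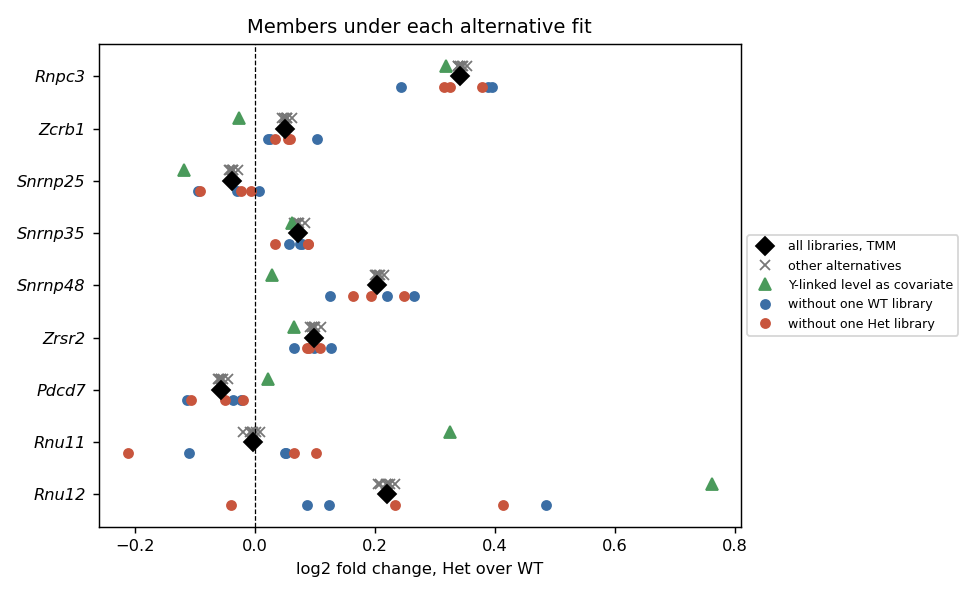
Log2 fold change of each member (x axis) with all libraries (black diamonds), without 1 WT (blue) or 1 Het (red) library, with the Y-linked level as a covariate (green triangles) and under the other alternatives (grey crosses). *Rnpc3* stayed between 0.24 and 0.40, *Snrnp48* fell to 0.03 with the covariate, and *Rnu12* ranged from -0.04 to 0.76.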

How the data were processed

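The libraries were made with a stranded total RNA kit after removal of ribosomal RNA and read as paired ends. After trimming, the authors aligned reads with STAR (genome mm10) and assigned them to genes. The paper names HTSeq for this step and the labels featureCounts, and neither gives the strand setting, so reads of overlapping genes may be shared. The deposited values are whole-number counts, not normalized, 1 row per gene symbol. All 6 libraries were used and grouped by the genotype in their labels.

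Counts were fitted with edgeR 4.0.16 in R 4.3.3: TMM scaling, filterByExpr (15584 genes kept, 8837 left out), robust quasi-likelihood fit, Het against WT, two-sided, Benjamini-Hochberg adjustment over all genes tested, threshold 0.05. DESeq2 1.42.0 was an alternative. CPM used TMM-scaled library sizes. The fit was run on counts simulated from its own means and dispersions, which cannot show how well the model suits these libraries. Annotation, lengths and sequences came from Gencode M21, which matched 23376 symbols. With no genome used here, minor-intron genes came from a fixed list. The members and lists were chosen with earlier results of these data known. Named were all members, all genes of the list specific to the minor spliceosome, and otherwise the called genes or the 3 lowest P in each direction of each list. Genes named for introns read from transcripts, and the tandem motif search, were chosen after their values were seen.

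Libraries numbered alike were not treated as pairs: the correlations of their deviations from the group means were 0.169, 0.0317 and 0.36. The sequence of 1 further minor intron is not reported here.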

Additional observations from a re-analysis of the deposited data

How the results depend on the processing

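The count of members called was 0 in every alternative fit, and the median log2 fold change of the members moved by less than 1 SD in each. The number of genes called over the whole table was 84 with DESeq2, 11 with no filter on low counts, 0 with the Y-linked level as a covariate and between 0 and 6 without 1 library each. DESeq2 called 3 of the shared or major spliceosome genes and 1 minor-intron gene, and 1 minor-intron gene was called with no filter; the cause was not tested. The median of the minor-intron genes lay between -0.040 (without Het replicate 1) and -0.0075 without 1 library each. Per kb of the longest coding transcript in place of all exons, an alternative added after seeing the data, WT levels were 5.22 for *Rnpc3*, 32.7 for *Zcrb1*, 39.8 for *Snrnp25*, 12.7 for *Snrnp35*, 13.9 for *Snrnp48* and 12.1 for *Zrsr2*, a shift set by the shorter length. Some small log2 fold changes changed sign. With the Y-linked covariate, *Zcrb1* was at -0.026, *Pdcd7* at 0.022, *Rnu11* at 0.33, *Zmat5* at -0.0085 and *Txnl4b* at -0.10. *Rnu11* was at 0.0089 with library size alone and 0.0022 with at least 10 counts in every library, and *Txnl4b* at -0.00063 with DESeq2. Without 1 library each, *Rnu11* lay between -0.21 and 0.10, *Rnu12* between -0.039 (without Het replicate 3) and 0.49, *Snrnp25* between -0.094 and 0.0070 (without WT replicate 2), *Txnl4b* between -0.047 and 0.078, *Zmat5* between -0.0045 and 0.081, *Scnm1* between -0.096 and 0.052 and *Rbm48* between -0.018 and 0.030. With the replicate number as a block, 1 gene and 0 members were called, and the adjusted P of *Rnpc3* and *Snrnp48* was 0.359 and 0.424 in edgeR; WT replicates 1 and 3 correlated best with the Het library of their own number and WT replicate 2 about equally with Het replicates 1 and 2 (0.0386 and 0.0317), a hint of pairing from the data that the labels do not bear out. The planned search with the 5′ splice site motif alone was not run, since it needs a genome. The snRNAs had 102 to 339 reads per library and a biological coefficient of variation of 0.162 (*Rnu11*) and 0.240 (*Rnu12*). Changes within the intervals given above are not excluded.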
